A study of Mus musculus with 20 samples.

Results

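The genes described here were 7 of the 48709 genes in the count table: the alpha-globin genes Hba-a1 and Hba-a2, the beta-globin genes Hbb-bs and Hbb-bt, the theta-globin genes Hbq1a and Hbq1b, and Alas2, a heme synthesis gene. They were chosen by symbol, as the hemoglobin-related genes of the table, over all 20 libraries. Hbq1a was chosen as a low-count gene that the study had named. The paper counts it among genes that responded to nPM and reports its association with glucose intolerance, with sex as a covariate. It also names the gene as an example of correlation with phenotypes in males. Values of Hbq1a in the contrasts that use exposed males are therefore given as a description with no test. Of the 7 genes, 3 (Hba-a1, Hbb-bs and Hbb-bt) passed the filter on low counts, and the other 4 did not.

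RNA-seq of the right hippocampus was compared in C57BL/6 mice (C57BL/6J in the methods), with 5 libraries in each of 4 groups, females and males of dams that breathed filtered air (control) or nPM. nPM is a nano-sized fraction of urban particulate matter. The dams of the nPM groups breathed it for 5 h a day on 3 days a week from gestational day 2 until birth, and the dams of the control groups breathed filtered air. The labels give its concentration as 300 mg/m3, a unit that differs from that of the methods. The offspring were not exposed after birth. Their ages were 17.71 to 18.29 weeks in females and 18.57 to 19.14 weeks in males, and by the methods male mice were also injected with EdU, a thymidine analogue that marks dividing cells, before tissue collection, so age, this treatment and sex cannot be told apart. By the methods, the mice were killed by cardiac puncture and the brains were perfused with saline before dissection. Each library came from its own mouse, and mice of 1 litter share a dam. By the methods, the offspring of an exposure group came from fewer litters than it has libraries. The labels do not tie libraries to litters, so litter was not a term in any fit.

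Hemoglobin is a tetramer of alpha and beta chains, each of which holds a heme group that binds oxygen. Red blood cell precursors make very large amounts of both chains, and young red cells that have lost their nucleus still carry the messages. In a brain sample, globin reads can come from blood left in the vessels, and low levels of alpha and beta globin messages have also been described in some neurons and glia. Alas2 encodes the erythroid form of the enzyme that makes 5-aminolevulinate, the first step of heme synthesis, and its ubiquitous relative Alas1 serves other cells. The theta globins are alpha-like genes of the alpha cluster whose function is not well known.

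In the mm10 build, the alpha cluster on chromosome 11 held Hba-a1 (ENSMUSG00000069919.7, chr11:32283511-32284465), Hbq1b (ENSMUSG00000073063.3, chr11:32286965-32287784), Hba-a2 (ENSMUSG00000069917.7, chr11:32296489-32297298) and Hbq1a (ENSMUSG00000020295.1, chr11:32300069-32300873), in this order on the plus strand. The adult beta genes were on the minus strand of chromosome 7, Hbb-bt (ENSMUSG00000073940.3) at chr7:103812524-103813996 and Hbb-bs (ENSMUSG00000052305.6) at chr7:103826534-103828096. Alas2 (ENSMUSG00000025270.13) lay on the plus strand of chromosome X at chrX:150547375-150570638. No other annotated gene overlapped the 6 globin genes. Alas2 lay wholly within the span of Apex2, a gene of the minus strand that encodes a DNA repair nuclease, and also overlapped Mir3620, a microRNA gene.

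The 120 bases before the RefSeq transcription start (GRCm38.p6, the assembly of mm10) were read for the 7 genes. They are shown because the alpha, beta and Alas2 messages stood high in the same libraries. The RefSeq starts differ from those of the gene models above. The windows of Hba-a1 and Hbb-bs lay wholly inside their gene models, and those of Hba-a2, Hbb-bt and Alas2 overlapped theirs in part. Searched on both strands were TATAA as the core of the TATA box, CCAAT as the core of the CCAAT box, CACCC as the core that Krüppel-like factors bind, and GATAA as the core that GATA factors bind. Matches on either strand are in capitals, and adjoining matches run together. The alpha and beta promoters came from chr11:32283552-32283671 (plus strand), chr11:32296372-32296491 (plus strand), chr7:103827929-103828048 (minus strand) and chr7:103813924-103814043 (minus strand), each printed 5′ to 3′ on the strand of its gene.
Hba-a1: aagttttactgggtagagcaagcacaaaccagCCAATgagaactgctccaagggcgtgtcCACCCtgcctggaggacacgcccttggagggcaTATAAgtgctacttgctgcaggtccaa
Hba-a2: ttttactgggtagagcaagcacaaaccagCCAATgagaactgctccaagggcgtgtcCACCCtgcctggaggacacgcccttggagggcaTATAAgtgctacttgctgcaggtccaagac
Hbb-bs: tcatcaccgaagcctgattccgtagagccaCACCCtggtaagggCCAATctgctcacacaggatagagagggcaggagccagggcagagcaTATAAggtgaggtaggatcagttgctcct
Hbb-bt: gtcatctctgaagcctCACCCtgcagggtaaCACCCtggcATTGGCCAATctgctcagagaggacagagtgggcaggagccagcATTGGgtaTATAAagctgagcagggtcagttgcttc

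All 4 of these windows held the TATA, CCAAT and Krüppel-like letters, and none held the GATA letters. Among the 32851 RefSeq windows of the same length, 11.8% held the TATA letters, 21.3% the CCAAT letters, 31.7% the Krüppel-like letters and 10.5% the GATA letters, on either strand. The windows of Hba-a1 and Hba-a2 shared an unbroken run of 117 bases. The theta windows (chr11:32299949-32300068 and chr11:32286844-32286963, both plus strand) and the Alas2 window (chrX:150547297-150547416, plus strand) are shown for contrast.
Hbq1a: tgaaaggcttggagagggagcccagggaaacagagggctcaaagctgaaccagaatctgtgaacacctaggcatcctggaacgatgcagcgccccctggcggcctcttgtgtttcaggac
Hbq1b: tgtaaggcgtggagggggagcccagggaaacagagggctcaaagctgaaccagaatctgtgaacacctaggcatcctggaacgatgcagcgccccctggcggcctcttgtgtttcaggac
Alas2: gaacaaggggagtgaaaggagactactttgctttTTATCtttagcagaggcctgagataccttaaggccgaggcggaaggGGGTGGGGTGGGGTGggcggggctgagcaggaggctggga

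None of the 4 motifs was in the theta windows, which were identical at 117 of 120 positions. Alas2 held the Krüppel-like letters in reverse complement at 3 places and the GATA letters in reverse complement once, and neither of the others. A match describes these letters and is not a measured binding site.

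Near-identical copies bear on the counts of each pair. Of the distinct runs of 50 bases in the Gencode M21 transcripts, Hba-a2 shared 89.3% with Hba-a1, and Hba-a1 shared 72.3% with Hba-a2. Hbb-bt shared 58.3% with Hbb-bs, and Hbb-bs 53.2% with Hbb-bt. Hbq1a shared 36.8% with Hbq1b, and Hbq1b 28.3% with Hbq1a. How reads that fit both copies were counted is not given in the sources used here, so the split within each pair is uncertain, and a sum over a pair is less so. Alas2 shared 11.5% of its runs with other genes, nearly all with Apex2 of the opposite strand.

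Levels are given as CPM, counts scaled to a library of 1000000 after TMM scaling of the library totals, which were 19092067 to 38663408. A count of 3, taken as the limit below which 0 cannot be told from presence, was worth 0.0784 to 0.164 CPM. Intervals and limits cover counting error only. In these bulk samples, fewer cells of a type and less RNA per cell cannot be told apart.

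Hbb-bs, the more abundant adult beta-globin gene, was counted in every library. In control females it stood at 2.69, 1.64, 1.37, 0.807 and 2.36 CPM in replicates 1 to 5, and in nPM females at 2.05, 1.19, 0.902, 2.35 and 1.90 CPM. The female groups overlapped through most of their range. In control males it stood at 25.9, 3.04, 4.39, 1.88 and 1.82 CPM, and in nPM males at 18.1, 38.8, 2.24, 1.91 and 3.27 CPM. Replicate 1 of the control males and replicates 1 and 2 of the nPM males therefore stood far above the other 17 libraries, which all lay between 0.807 and 4.39 CPM. These 3 hemoglobin-rich libraries were 12.1, 8.45 and 18.1 times the median of all 20 libraries for Hbb-bs.

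Hbb-bt, the second adult beta-globin gene, was highest in the same 3 libraries, at lower counts. Its levels were 0.139 to 1.25 CPM in control females (median 0.420) and 0.278 to 0.624 CPM in nPM females (median 0.382). In control males it stood at 3.43, 0.714, 0.997, 0.470 and 0.447 CPM. In nPM males it stood at 4.51, 6.47, 0.436, 0.249 and 0.817 CPM. Among the 3, nPM male 1 stood above control male 1, the reverse of their order for Hbb-bs, and nPM male 4, at 9 counts, lay below the median of either female group.

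Hba-a1, the first adult alpha-globin gene, had 908 counts in all against 3649 for Hbb-bs. It stood at 0.448, 0.458, 0.374, 0.111 and 0.845 CPM in control females and at 0.628, 0.382, 0.139, 0.219 and 0.263 CPM in nPM females. In control males it stood at 10.4, 0.679, 0.702, 0.470 and 0.279 CPM, and in nPM males at 4.93, 6.92, 0.436, 0.580 and 0.666 CPM. Control male 1 was the highest library for Hba-a1, at 22.3 times the median of the 20, whereas nPM male 2 was the highest for Hbb-bs. The 17 other libraries lay between 0.111 and 0.845 CPM for Hba-a1, so that no value fell in the gap between them and the 3.

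Hba-a2, the second adult alpha-globin gene, was under the filter. Its counts were 7, 5, 2, 3 and 6 in control females, 4, 4, 2, 1 and 5 in nPM females, 40, 6, 9, 6 and 2 in control males and 63, 102, 8, 9 and 7 in nPM males. The 3 hemoglobin-rich libraries held 205 of its 291 counts. By length-scaled level (RPKM, CPM per kilobase of the gene model), the mean over the 20 libraries was 7.72 for Hbb-bs, 1.84 for Hba-a1, 1.65 for Hbb-bt, 0.699 for Hba-a2, 0.345 for Hbq1a, 0.155 for Alas2 and 0.148 for Hbq1b. Hba-a1 and Hbb-bt were neighbours in this order whose spread over libraries was larger than their difference, and so were Alas2 and Hbq1b.

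Alas2 was high in 4 libraries and not only in the 3 with much globin. Its counts were 6, 1, 0, 4 and 5 in control females and 48, 2, 4, 1 and 3 in control males. In nPM females they were 3, 2, 2, 32 and 4, and in nPM males 30, 45, 9, 3 and 2. The 3 hemoglobin-rich libraries had 1.79, 0.795 and 1.44 CPM. nPM female 4 had 1.75 CPM of Alas2 (exact 95% interval 1.20 to 2.47), beside 2.35 CPM of Hbb-bs and 0.219 CPM of Hba-a1, both within the range of the other females. Apex2, whose span holds Alas2, stood at 25.6 CPM in that library, the third highest of a range of 8.60 to 37.2 CPM. Control female 3 had no Alas2 count, which allows up to 0.0936 CPM.

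Hbq1a did not follow the alpha and beta genes. Its counts were 8, 2, 6, 4 and 1 in control females and 4, 6, 3, 1 and 5 in nPM females. In control males they were 9, 12, 18, 15 and 13, and in nPM males 8, 2, 5, 2 and 3. The male groups did not overlap, with control males at 0.336 to 0.665 CPM and nPM males at 0.0553 to 0.212 CPM, on 67 counts against 20. The study named the gene from data that include these males, so this difference is a description. Of the 3 hemoglobin-rich libraries, control male 1 had the lowest Hbq1a level of the control males, nPM male 1 the highest of the nPM males, and nPM male 2 was at 2 counts. Hbq1b was lower still, with 0 to 7 counts a library and 65 in all. It had no count in nPM females 3 and 4, which allows up to 0.104 and 0.164 CPM.

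**Figure D1:**
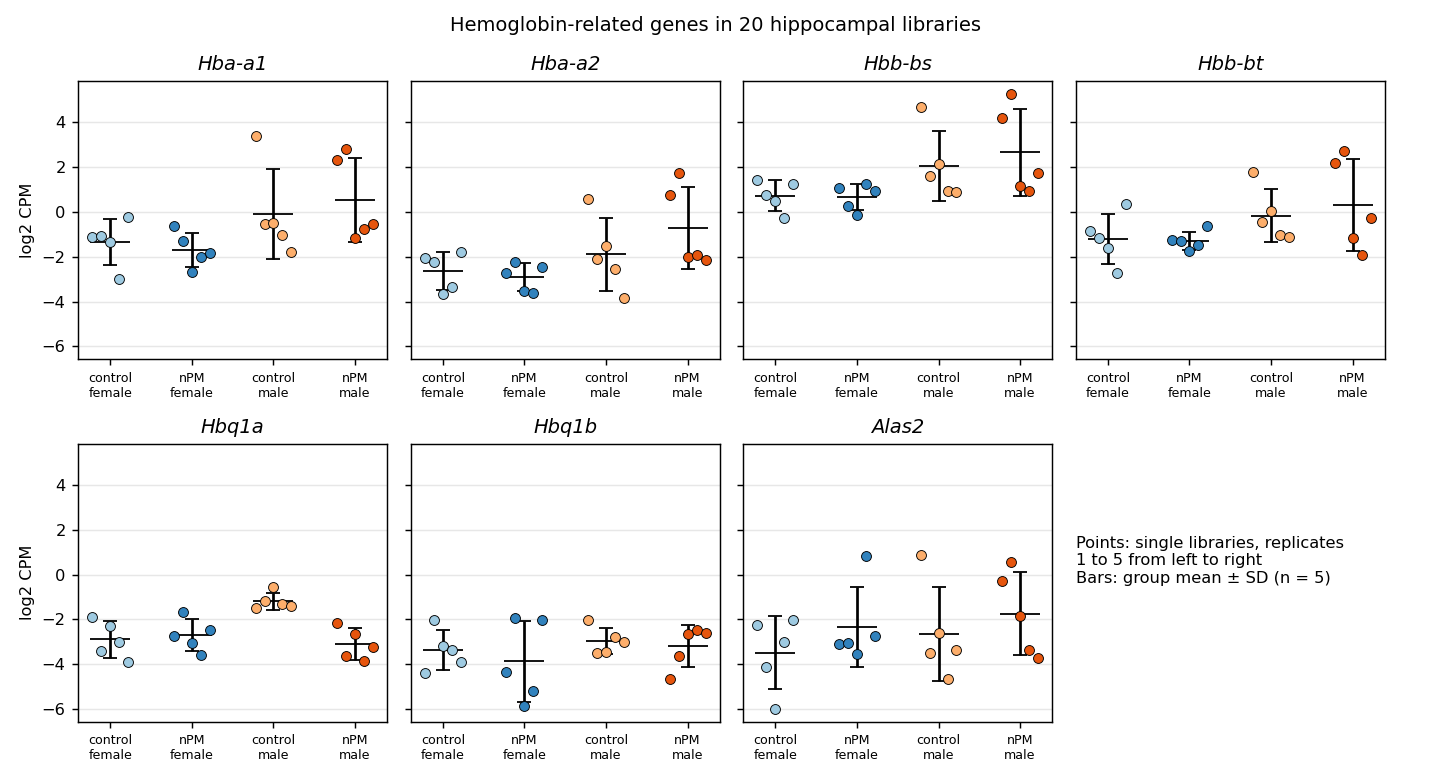
Log2 CPM of the 7 genes by group, 1 point per library (replicates 1 to 5 from left to right), with the group mean and SD (n = 5) as bars. Control male 1 and nPM males 1 and 2 stand apart for the alpha and beta genes, nPM female 4 joins them for Alas2, and the male groups are separate for Hbq1a.

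The ratio of alpha to beta was broadly alike in libraries with much and little hemoglobin. The 4 adult alpha and beta genes summed to 29.2 to 55.4 CPM in the 3 hemoglobin-rich libraries and to 1.14 to 6.42 CPM in the other 17, and the 3 libraries held 70.7% of all 5568 counts of these genes. By summed RPKM, alpha was 0.389, 0.286 and 0.225 of beta in control male 1, nPM male 1 and nPM male 2. It was 0.0996 to 0.383 of beta in the other 17 libraries, with a median of 0.233, a range that held 2 of the 3 values and ended just below the third. The lowest of these ratios was that of nPM female 4.

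The split between near-identical copies differed among the 3 hemoglobin-rich libraries by more than counting error. Hba-a2 took 12.6% of the 318 alpha counts in control male 1 (exact 95% binomial interval 9.14 to 16.7%). It took 25.3% of 249 in nPM male 1 (20.02 to 31.2%) and 32.1% of 318 in nPM male 2 (27.0 to 37.5%). Hbb-bt took 11.7% of 786 beta counts in control male 1 (9.54 to 14.2%), 19.9% of 853 in nPM male 1 (17.3 to 22.8%) and 14.3% of 1412 in nPM male 2 (12.5 to 16.2%). The order of the libraries was thus not the same for both shares, although control male 1 was lowest in both. In the other 17 libraries, Hbb-bt took 11.5 to 34.6% and Hba-a2 14.3 to 42.9%, on totals of 33 to 146 and 5 to 30 counts. Control female 5, with 34.6% of 81 beta counts (24.3 to 46.0%), had the largest Hbb-bt share. With 1 hemoglobin-rich control and 2 such nPM libraries, these shares were not compared between exposure groups.

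Beside Hbb-bs, the share of Alas2 also differed between control male 1 and nPM male 2 by more than counting error. It was 6.47% of the counts of both genes in control male 1 (4.81 to 8.49%), 4.21% in nPM male 1 (2.86 to 5.95%) and 3.59% in nPM male 2 (2.63 to 4.77%). In 16 of the other 17 libraries it was 0 to 12.1%, on totals of 27 to 123 counts. In nPM female 4 it was 42.7% (31.3 to 54.6%), an interval that did not reach those of the other 19 libraries.

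**Figure D2:**
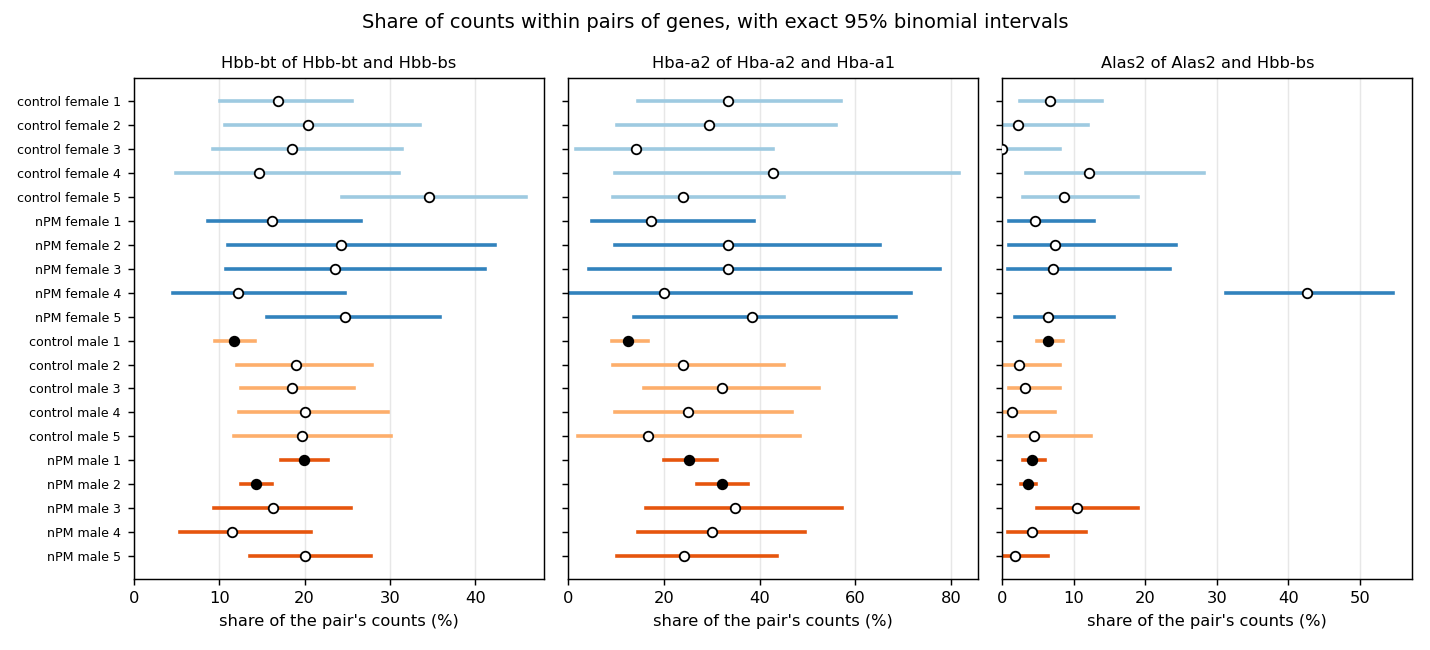
Share of counts of Hbb-bt among the beta pair, of Hba-a2 among the alpha pair and of Alas2 beside Hbb-bs, in percent, for each library, with exact 95% binomial intervals as lines in the colour of the group. Filled points mark the 3 hemoglobin-rich libraries, whose intervals are the narrowest, and the Alas2 share of nPM female 4 stands apart at 42.7%.

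**Figure D3:**
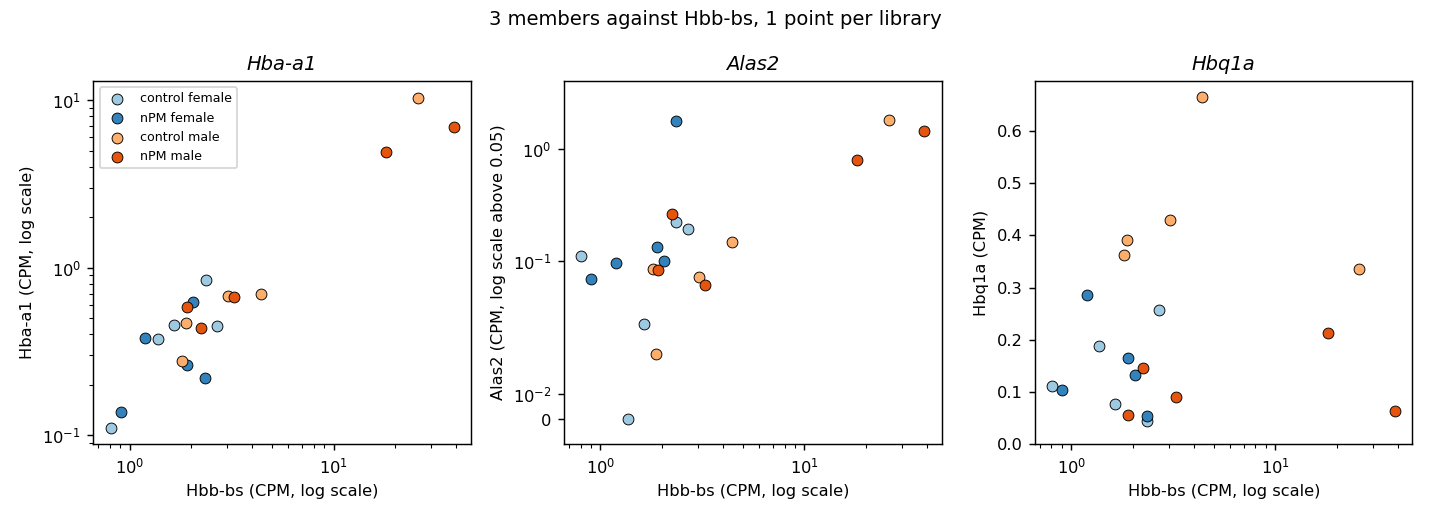
CPM of Hba-a1, Alas2 and Hbq1a against CPM of Hbb-bs, 1 point per library in the colour of its group, with log scales except for Hbq1a. Hba-a1 rises with Hbb-bs and 3 male libraries lie at the upper right, nPM female 4 lies high for Alas2 at a low Hbb-bs level, and Hbq1a shows no such cluster.

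The first question was whether gestational nPM moved these genes. In the model of exposure with sex as a covariate, limma-voom called 0 of the 3 tested genes at p under 0.005, the threshold of the study, where 0.141% of 19797 genes were called. The log2 fold changes (nPM minus control) were 0.44 (95% interval -0.95 to 1.83) for Hba-a1, 0.49 (-0.77 to 1.74) for Hbb-bs and 0.36 (-0.85 to 1.57) for Hbb-bt, each at adjusted p = 0.9998. By limma 0 of the 3 were also under an unadjusted p of 0.05, as 2.1% of all genes were, and edgeR and DESeq2 called 0 beside 0.131 and 0.218% of all genes. Without the 3 hemoglobin-rich libraries, an alternative chosen after seeing the data, the same log2 fold changes were -0.04, -0.04 and -0.21, so their sign rested on those libraries.

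In males, where 0.207% of genes were called, 0 of the 3 were. The log2 fold changes were 0.73 (95% interval -1.49 to 2.94) for Hba-a1, 0.70 (-1.38 to 2.77) for Hbb-bs and 0.53 (-1.47 to 2.54) for Hbb-bt, each at limma adjusted p = 0.964. None of the 3 was under an unadjusted p of 0.05 by limma, as 4.28% of all genes were, and edgeR and DESeq2 called 0 beside 0.207 and 0.573% of all genes. Without the 3 libraries they were 0.17, -0.07 and -0.45. By replicate, 2 nPM males and 1 control male were hemoglobin-rich, and the other 3 and 4 overlapped.

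In females, where 0.0909% of genes were called, again 0 of the 3 were. The log2 fold changes were -0.25 (95% interval -1.41 to 0.92) for Hba-a1, 0.0022 (-0.78 to 0.79) for Hbb-bs and 0.02 (-1.04 to 1.09) for Hbb-bt, each at limma adjusted p = 0.9999. None of the 3 was under an unadjusted p of 0.05 by limma, as 1.99% of all genes were, and edgeR and DESeq2 called 0 beside 0.121 and 0.279% of all genes. The intervals in females were narrower than in males. The interaction of sex and exposure, which tests whether the effect differed between the sexes, called 0 of the 3 beside 0.217% of all genes. Its log2 values were 0.98 for Hba-a1 and 0.70 for Hbb-bs (limma adjusted p = 0.987 for each) and 0.52 for Hbb-bt (adjusted p = 0.991). None was under an unadjusted p of 0.05, as 3.79% of all genes were, and edgeR and DESeq2 called 0 beside 0.333 and 0.451% of all genes. The values were 0.43, -0.06 and -0.45 without the 3 libraries.

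The 4 genes under the filter were compared within each sex by exact permutation tests of mean log2 CPM, two-sided, with 7 comparisons in the family and 0.00794 as the smallest p that the design allows. In males, Hba-a2 was at -1.88 ± 1.63 in controls and -0.72 ± 1.82 in nPM (log2 CPM, SD, n = 5 each, exact p = 0.294). Alas2 was at -2.65 ± 2.10 and -1.74 ± 1.86 (exact p = 0.484), and Hbq1b at -2.95 ± 0.58 and -3.20 ± 0.94 (exact p = 0.659). In females, Alas2 was at -3.48 ± 1.63 in controls and -2.33 ± 1.79 in nPM (exact p = 0.397), where 2 of 5 nPM females lay above the control median. Hba-a2, Hbq1a and Hbq1b in females had exact p values of 0.532, 0.706 and 0.595. All 7 differences were smaller than the spread between libraries.

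For Hbq1a in males, the mean log2 CPM was -1.18 ± 0.38 in controls and -3.11 ± 0.71 in nPM (SD, n = 5 each). The ratio of the mean CPM, control over nPM, was 3.85. It rests on nPM male counts of 8, 2, 5, 2 and 3, several of them at or below the limit of 3 counts. In the voom fit of every gene with at least 1 count, its log2 value was -1.89 in males, -2.11 without the 3 hemoglobin-rich libraries, and 0.16 in females (limma adjusted p = 0.998). The male difference is a description, and its size did not rest on the libraries with much hemoglobin.

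The second question was whether the sexes differed. The values in males were higher for all 3 genes but not past the threshold by limma, with male minus female log2 fold changes of 1.72 for Hba-a1 (95% interval 0.18 to 3.25, limma adjusted p = 0.0688), 1.63 for Hbb-bs (0.25 to 3.01, adjusted p = 0.0550) and 1.31 for Hbb-bt (0.02 to 2.60, adjusted p = 0.0987). By limma, 0 of the 3 passed p under 0.005, where 31.1% of all genes did, although all 3 were under an unadjusted p of 0.05, as were 48.4% of all genes. At the same threshold edgeR's quasi-likelihood test called all 3, with 2.75, 2.50 and 1.91, beside 31% of all genes. The DESeq2 Wald test also called all 3, with 2.77, 2.50 and 1.92, beside 34.1% of all genes. All 3 hemoglobin-rich libraries were male. Without them the limma values were 0.63 for Hba-a1 (adjusted p = 0.166), 0.63 for Hbb-bs (adjusted p = 0.0625) and 0.40 for Hbb-bt (adjusted p = 0.391). In the fit of every gene with at least 1 count, the male minus female log2 value of Alas2 was 0.71 (limma adjusted p = 0.519), and -0.29 without the 3 libraries. For Hbq1a it was 0.80, given as a description because the contrast uses exposed males. Its mean log2 CPM was -1.18 in control males against -2.89 in control females, but -3.11 in nPM males against -2.71 in nPM females.

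**Figure D4:**
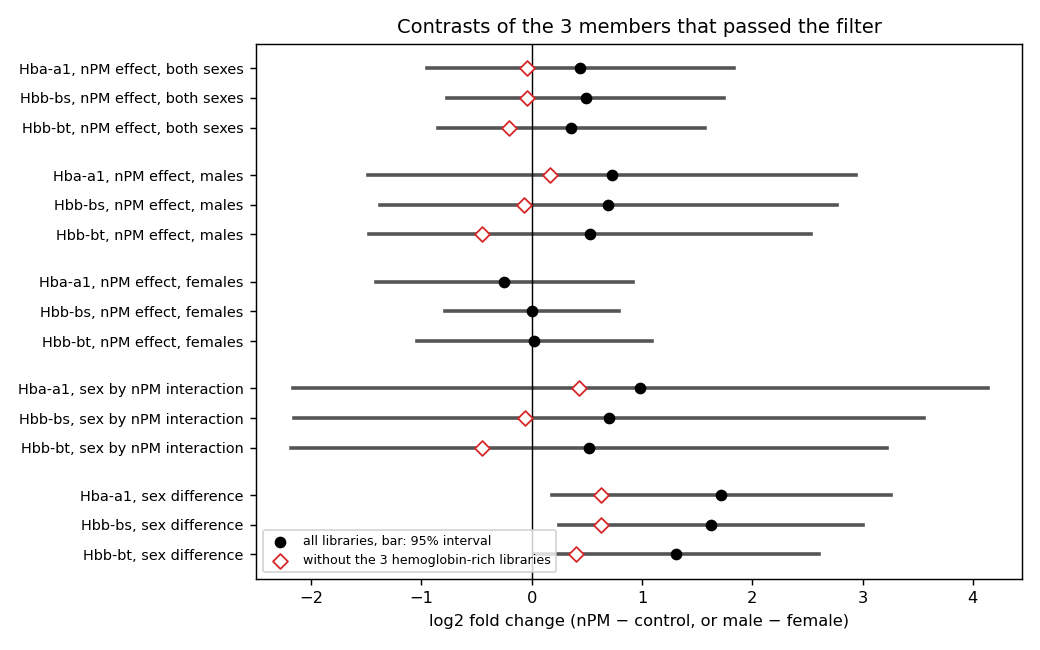
Log2 fold changes of Hba-a1, Hbb-bs and Hbb-bt in the 5 limma-voom contrasts, with 95% intervals as bars, and the values without the 3 hemoglobin-rich libraries as open diamonds. The exposure intervals all cover 0, and the sex differences fall from 1.72, 1.63 and 1.31 to 0.63, 0.63 and 0.40 when those libraries are left out.

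The libraries fell into separate clusters for hemoglobin, so correlations were taken only within the 17 libraries outside the hemoglobin-rich 3. There, Hbb-bs and Hbb-bt went together (Pearson r = 0.79, adjusted permutation p = 0.00682, Spearman rho = 0.74, adjusted permutation p = 0.0416), with r = 0.62 without the 2 libraries farthest from the median. Hba-a1 and Hbb-bs had r = 0.76 (adjusted permutation p = 0.00682) and rho = 0.66 (adjusted permutation p = 0.0496). Without control female 4 and nPM female 3, that r was 0.48 with a permutation p of 0.0689, so the relation rested in part on these libraries. Hba-a1 and Hbb-bt had r = 0.73 (adjusted permutation p = 0.0111) and rho = 0.67 (adjusted permutation p = 0.0496). As deviations from the group means, the 3 values of r were 0.79 for the beta pair, 0.71 for Hba-a1 and Hbb-bs and 0.74 for Hba-a1 and Hbb-bt. The Hbb-bs and Hbb-bt counts can share reads, which their sequence identity allows, and Hba-a1 shares no run of 50 bases with either.

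The family held 35 relations, and the other 32 set Hba-a1 and Hbb-bs against library size, mitochondrial ribosomal RNA and 14 lists of marker genes in the same 17 libraries. Their r values were between -0.46 and 0.39, and the smallest adjusted permutation p was 0.547. With library size, r was -0.09 for Hba-a1 and -0.10 for Hbb-bs, and -0.56 and -0.63 as deviations from the group means. Total counts of the 3 hemoglobin-rich libraries were 28026459, 37378472 and 31189000, within the range of the others. The share of counts on mitochondrial ribosomal RNA was 11.9, 11.8 and 10.8% in them, against 9.16 to 13.3% over all libraries.

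The name blood was checked against other genes of blood cells, from lists written with earlier results of these data known. Of 28 genes expressed in erythroid cells, 27 were in the table and 12 passed the filter. Among the most abundant of them were Sptb, which encodes a spectrin of the membrane skeleton, and Tfrc, the transferrin receptor, at means of 222 and 172 CPM, and brain cells express these as well. Among those called for the sex difference by limma, Bpgm and Bnip3l were higher in males (0.30 and 0.38 on the log2 scale) and Sptb was lower (-0.41), where 31.1% of all genes were called. None of the 12 was called for exposure or the interaction, where 0.0909 to 0.217% of all genes were. Under an unadjusted p of 0.05 were 1 in males and 1 in the interaction, where 4.28 and 3.79% of all genes were. Defining erythroid genes were at or near 0. Rhag, a red cell membrane gene, had no count in any library, Gata1, the erythroid transcription factor, had 1 count in all, Hemgn had 5 and Epb42 had 7. Slc4a1, the anion exchanger of the red cell membrane, had 69, with its highest count, 19, in control male 3, which was not hemoglobin-rich. The 16 erythroid genes under 1 CPM in every library, grouped after their values were seen, summed to 43, 32 and 47 counts in control male 1, nPM male 1 and nPM male 2, and to 11 to 49 in the other 17. Scaled to CPM, these sums were 1.60, 0.848 and 1.51 in the 3 libraries and 0.390 to 1.81 in the other 17. The 3 libraries thus stood apart for adult globins and, with nPM female 4, for Alas2. For the summed low erythroid genes they lay within the range of the others, with control male 1 and nPM male 2 in its upper part.

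Among the other globin genes, Hba-x, Hbb-bh0, Hbb-bh1, Hbb-bh2 and Hbb-bh3 had no count in any library, and the embryonic gene Hbb-y had 20 in all, 1 of them in the 3 hemoglobin-rich libraries. Neuroglobin (Ngb), an oxygen-binding globin of neurons, and cytoglobin (Cygb), a globin of fibroblasts and other cells, were at means of 2.52 and 25.01 CPM. The list summed to 39.6, 42.7 and 28.5 CPM in control male 1, nPM male 1 and nPM male 2, ranks 2, 1 and 8 of the 20 libraries, whose lowest was 18.0 CPM, and Cygb itself was highest in nPM male 1, at 39.2 CPM. Both genes were higher in males, by 1.27 (limma adjusted p = 0.00447) and 0.37 (adjusted p = 0.00763) on the log2 scale, as 2 of the 3 tested genes of that list, where 13.9% of all genes were called higher in males. For exposure in females the log2 value of Ngb was -1.25 (limma adjusted p = 0.9999), which did not pass the threshold.

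Genes of heme synthesis and of heme clearance were also set beside them. All 11 heme synthesis genes were tested. None was called for exposure or the interaction, where 0.0909 to 0.217% of all genes were. Fech alone was under an unadjusted p of 0.05, in females and in the interaction, where 1.99 and 3.79% of all genes were. Cpox, Fech and Tmem14c were higher in males (0.20, 0.21 and 0.32 on the log2 scale). These were 3 of 11, all of them higher in males. Of all genes, 13.9% were called higher in males and 31.1% in either direction. The median of the list was 0.15 in that contrast beside 0.02 for all genes. Of the 11 clearance genes, 9 were tested and none was called for exposure, where 0.0909 to 0.207% of all genes were. Flvcr2 alone was under an unadjusted p of 0.05, in females, as 1.99% of all genes were. Hmox2 and Blvrb, which act in the breakdown of heme, were higher in males (0.20 and 0.47) and the receptor gene Lrp1 lower (-0.35). These were 3 of 9, near the 31.1% of all genes called in either direction. Hmox1, the heme oxygenase that heme itself induces, was at 2.39 to 4.34 CPM and was not called in any contrast. The summed level of the clearance list was 552, 754 and 620 CPM in the 3 hemoglobin-rich libraries, ranks 20, 14 and 19 of the 20.

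Markers of the other cell types a hippocampal sample can hold gave these values. Platelet genes summed to 3.58, 3.63 and 3.56 CPM in the 3 hemoglobin-rich libraries against 2.41 to 4.40 in all. Lymphocyte genes summed to 3.99, 5.41 and 7.11 CPM against 3.99 to 11.04, and monocyte genes to 6.23, 3.07 and 4.20 against 1.75 to 8.01. Neutrophil genes summed to 3.43, 2.89 and 4.65 CPM and were highest in control male 3, at 8.79. The neutrophil granule genes S100a8 and S100a9 had 39 and 50 counts there, 16 and 16 in control male 1, 6 and 2 in nPM male 1, 13 and 13 in nPM male 2, and medians of 2.5 and 3.5 in the other 16. Of the platelet, lymphocyte and monocyte lists, 9 genes were tested and 0 were called in any contrast. Of all genes, 0.0909 to 0.217% were called for exposure or the interaction and 31.1% for sex. Under an unadjusted p of 0.05 were 1 of the 9 for exposure in both sexes, 1 in males and 1 in the interaction. The shares of all genes there were 2.1, 4.28 and 3.79%. Of the neutrophil list only Csf3r, a cytokine receptor gene, was tested, and it was lower in males (-0.47 on the log2 scale). Choroid plexus genes ranged over 42.7 to 8649 CPM and were at 101, 93.8 and 3170.4 CPM in the 3 libraries.

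For vessels, 7 of 12 endothelial genes were lower in males (Flt1, Pecam1, Cdh5, Slco1a4, Esam, Slc2a1 and Abcb1a, by -0.64 to -0.28 on the log2 scale), with a list median of -0.30, where 17.1% of all genes were called lower. Their sum was 222.7 to 281.9 CPM in males and 280.0 to 377.8 CPM in females, so it moved with sex opposite to hemoglobin. Of the mural, perivascular macrophage, meningeal fibroblast, choroid plexus and hippocampal neuron lists, 0 of 49 tested genes were called in any contrast. Of all genes, 31.1% were called for sex and 0.0909 to 0.217% in the other contrasts. Of the 49, 8 were under an unadjusted p of 0.05 for the sex difference, where 48.4% of all genes were. In each other contrast 1 or 2 were, where 1.99 to 4.28% of all genes were. Beyond the correlations in the 17 libraries given above, the part of these cell types in the hemoglobin values was not tested.

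**Figure D5:**
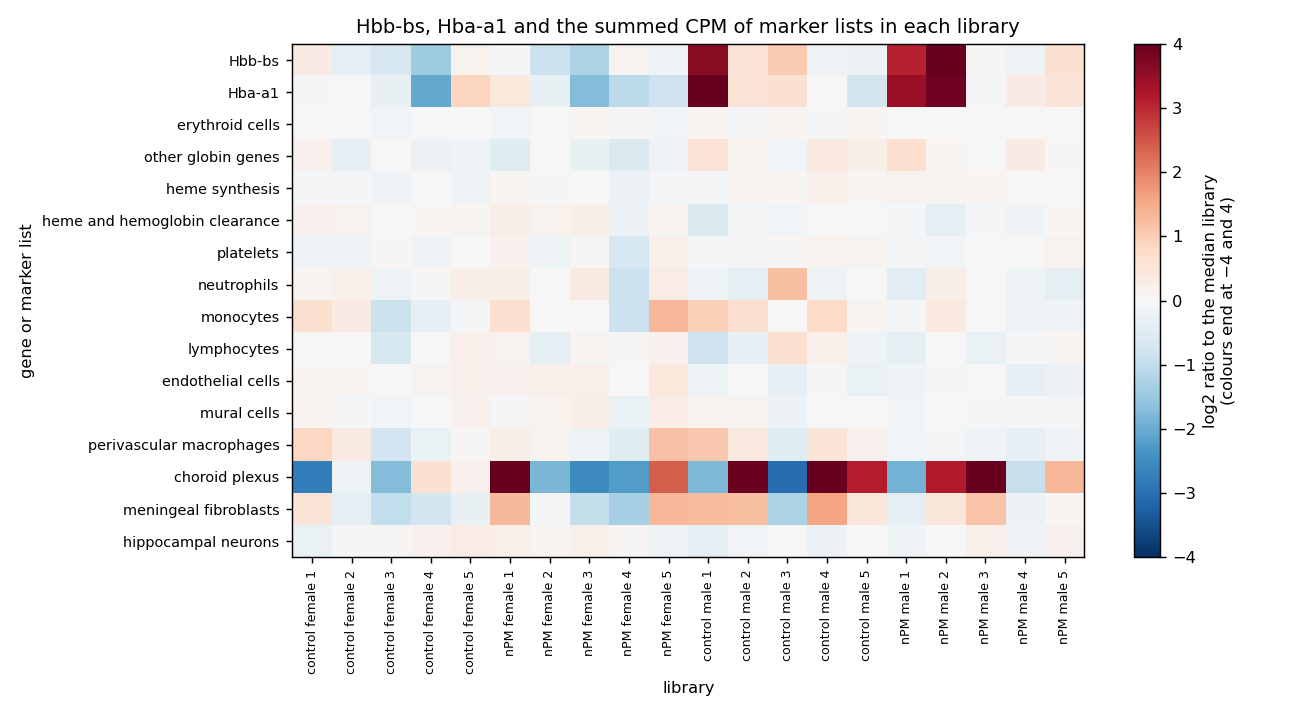
Level of Hbb-bs, Hba-a1 and the summed CPM of 14 marker lists in each of the 20 libraries, as the log2 ratio to the median library, with colours that end at -4 and 4. The dark cells of Hbb-bs and Hba-a1 in control male 1 and nPM males 1 and 2 have no counterpart in the erythroid, platelet or leukocyte lists, and choroid plexus varies most among the lists.

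The genes whose log2 CPM was most like that of Hbb-bs over the 20 libraries were Hba-a1 (r = 0.95) and Hbb-bt (r = 0.95). The next were Mrpl1 (0.83), a gene of the mitochondrial ribosome, Ccdc59 (0.82), Bche (0.77), which encodes butyrylcholinesterase, AW209491 (0.77), Gm9833 (0.77), Psip1 (0.77), Gemin6 (0.77) and Dut (0.77), which encodes dUTPase. The SD of log2 CPM was 1.502 for Hbb-bs, 1.67 for Hba-a1 and 1.40 for Hbb-bt, against 0.08 for Mrpl1 and 0.32 for Bche. In the 17 libraries outside the 3, r with Hbb-bs was 0.79 for Hbb-bt, 0.76 for Hba-a1, 0.67 for Ccdc59, 0.54 for Mrpl1 and 0.19 for AW209491. These values are a description over genes chosen for their likeness.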

How the data were processed

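RNA of the right hippocampus was sequenced by the authors after depletion of ribosomal RNA. The submitters' processing notes name FastQC, Trimmomatic, HISAT2 and featureCounts 1.5.0-p3, with mm10 and Gencode M11. The authors deposited whole-number counts for 48709 genes in 20 libraries, without normalization, and a gene map with a mean RPKM per gene, which differed from the counts by at most 4.37e-11 and entered no test. Whether counting used strand or multi-mapped reads is not given in the sources used here.

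Groups came from the sample labels. The members and gene lists were chosen with earlier results of these data known. Libraries were scaled by TMM (edgeR 4.0.16) and 19797 genes kept by filterByExpr (minimum count 10, minimum total 15, a CPM limit of 0.339). On the whole table, voom weights and linear models came from limma 3.58.1 in R 4.3.3, with an offset of 0.5 counts, a threshold of p under 0.005 as in the study and Benjamini-Hochberg adjustment over all genes tested. Members under the filter were compared by exact permutation tests, and correlations by 100000 permutations (scipy 1.17.1). Libraries could not be tied to litters, so p-values measure the spread between these mice, some of which share a litter. At 2-fold, the fits recovered 174 to 194 of 200 genes in tests on simulated data for the exposure contrasts, and 154 for the interaction. These rates are over genes of the whole filtered table and were not measured for the tested members. The intervals of Hba-a1, -0.95 to 1.83 in both sexes and -1.49 to 2.94 in males, held a 2-fold rise. Among the tested members, only Hbb-bs in females (-0.78 to 0.79) had an exposure interval without a 2-fold change. For the others, the lack of a call does not exclude such a change.

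Nearest the filter on its inner side were Hbb-bt and Hba-a1, each over the CPM limit in 15 libraries, and outside it Hbq1a and Alas2 (4 libraries each), Hba-a2 (3) and Hbq1b (0). The genes named were the 7 members, list genes past the threshold in any fit, up to 3 of the most abundant genes of a list, the 10 genes most like Hbb-bs and genes that overlap a member. S100a8, S100a9 and single low erythroid genes were named after their values were seen. Single values of 2 list genes are not reported here. The lists were erythroid cells, other globin genes, heme synthesis, heme and hemoglobin clearance, platelets, neutrophils, monocytes, lymphocytes, endothelial cells, mural cells, perivascular macrophages, choroid plexus, meningeal fibroblasts and hippocampal neurons. Alternatives were DESeq2 size factors (RLE), no filter, edgeR's quasi-likelihood test, DESeq2 1.42.0, a replicate block, age as a covariate, 1 fit of the 4 groups, the linear scale, leaving out each library, and leaving out the 3 hemoglobin-rich libraries.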

Additional observations from a re-analysis of the deposited data

Results flagged for a closer look

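In 7 of 28 groups of 5 libraries (7 genes in 4 groups), the gap between the highest library and the next was large. It was more than 0.71 of the group's range, the Dixon critical value for 5 samples. The 7 genes were counted in the same libraries and several rose together. The groups were thus not independent, and the count of flags is a description. Control male 1 stood apart for 5 genes. It had 10.37 CPM of Hba-a1 where the next control male had 0.702, 1.492 CPM of Hba-a2 against 0.332, 25.88 CPM of Hbb-bs against 4.39, 3.431 CPM of Hbb-bt against 0.997 and 1.79 CPM of Alas2 against 0.148. Control male 3 stood apart for Hbq1a, at 0.6646 CPM against 0.429, and was also the library with the most S100a8 and S100a9. nPM female 4 stood apart for Alas2, at 1.752 CPM against 0.131, with a low alpha-globin level. No nPM male was flagged, since 2 of the 5 were hemoglobin-rich and the gap then lies within the group.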

How the results depend on the processing

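Of 410 values with 1 library left out, 393 kept their direction and their side of the threshold, and of 167 values under the other alternatives, 133 did. No tested member was called for exposure or the interaction under any of them. For the sex difference the number called was 0 with limma and 3 with edgeR's quasi-likelihood test, with DESeq2 and with the replicate block (29.5% of all genes called), and 0 with any 1 library left out. For Hba-a1 and Hbb-bs in the 17 libraries, r was 0.48 without the 2 libraries farthest from the median. Values near 0 turned. For both sexes, Hba-a1 was -0.070 with edgeR and -0.16 with DESeq2, and without the hemoglobin-rich libraries Hba-a1, Hbb-bs and Hbb-bt were -0.044, -0.040 and -0.21. Without those libraries, Hbb-bs and Hbb-bt were -0.073 and -0.45 in males and -0.059 and -0.45 in the interaction, and Hbq1b in males was 0.61 (exact p = 0.0571). In females, Hbb-bs was -0.0022 with RLE, -0.059 with edgeR, -0.064 with DESeq2, -0.076 with the replicate block, -0.12 with age and -0.010 in 1 fit of the 4 groups, Hbb-bt was -0.33 with edgeR, -0.36 with DESeq2, -0.27 with the replicate block and -0.050 with age, and Hbq1b was 0.0037 CPM on the linear scale. Apart from the construction of the hemoglobin-rich alternative, the cause was not tested.

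With 1 library left out, Hbb-bt was -0.011 to 0.75 in both sexes, -0.031 to 1.11 in males and -0.033 to 1.10 in the interaction, each negative without nPM male 2. In females the ranges were -0.70 to 0.020 for Hba-a1, -0.28 to 0.22 for Hbb-bs, -0.39 to 0.36 for Hbb-bt, -0.072 to 0.44 for Hbq1a and -0.98 to 0.00090 for Hbq1b, and Hbq1b in males was -0.43 to 0.11. The replicate numbers did not pair the libraries. Same-numbered libraries had correlations of -0.36 to 0.16 in their deviations from the group means and 0 of 10 control libraries correlated best with the nPM library of its own number and sex, so the replicate block is given here only as a value. It changed no call other than the 3 above. At these depths the 4 members under the filter had a median of 3 to 6 counts a library, so changes in them below the spread given could not be seen.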
